A study of Mus musculus with 20 samples.

Results

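H3K27ac was compared between mouse liver (1 library) and mouse embryonic stem (ES) cells (2 libraries) along chromosomes 1 to 19, cut into 2462427 bins of 1 kb. A bin was tested where the mean of the liver level and the ES level reached 1 RPM (reads per 1000000 distinct reads of a library) and the mean histone H3 background lay under 2 RPM, which left 182577 bins (7.41%). A bin with at least 4 RPM of H3K4me3 in ES cells or in liver was called a promoter bin, and of 37439 such bins 35549 (94.95%) were tested. The remaining 147028 tested bins, 6.06% of 2424988, are called other bins. The study profiled histone marks and bound proteins in several mouse cell types, with 20 libraries in all, of which 16 were used here.

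H3K27ac is acetylation of lysine 27 of histone H3, a mark of active promoters and active enhancers. H3K4me3 is concentrated at transcription start sites, and H3K4me1 marks enhancers, both active and poised, and the flanks of active promoters, where it is usually depleted at the centre. Enhancer acetylation is known to vary more between cell types than promoter acetylation does.

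The ES cells of both H3K27ac libraries were V6.5 cells, a 129JAE-C57/B6 hybrid line, grown on irradiated mouse embryonic fibroblast feeders and then for 1 passage without feeders on gelatin. The ES H3 and H3K4me3 libraries came from the same line after the same number of passages without feeders, and the ES p300 and whole cell extract libraries after 2. The 3 ES H3K4me1 libraries differed in their cells: V6.5 after 2 passages without feeders, V6.5 carrying a doxycycline-inducible reprogramming transgene named 4f2a, and the C57BL/6 inbred line j21, the latter both after 1 passage. No treatment with doxycycline was named for that library. Liver was whole perfused tissue, dissociated, strained, spun at low speed and washed, so its cells are a mixture, and strain, age, sex and number of animals are not given in the labels. The liver marks (H3K27ac, H3K4me1, H3K4me3, H3 and whole cell extract) have 1 library each. The labels do not say that the ES libraries came from separate cultures, so the spread between them may be technical. No annotation of the genome build of the files was used here, so bins carry positions and no gene names, and marker genes of liver, ES cells or feeder cells were not checked.

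The liver H3K27ac library held 5049578 distinct reads, against 8766359 and 8403078 in the ES libraries, so 1 read is worth more RPM in liver than in ES cells. Tested bins held 76.3% of the liver H3K27ac reads and 58.4% and 64.7% of the ES reads, but 11.5% of liver H3 and 10.8% of ES H3 reads. The ES H3K4me3 library was the shallowest, with 2319684 distinct reads and 69.97% repeated reads, against 7894000 and 13.2% in liver; the 4 RPM threshold corresponds to 9.28 reads in ES cells and 31.6 reads in liver. What these differences in depth do to the split of promoter bins was not tested. The 2 ES H3K27ac libraries differed from each other by more than counting noise (chi-square divided by its degrees of freedom 2.31, 180050 bins), yet only 15 of 182577 tested bins (0.00822%) differed by 4-fold between them, and 4.41% differed by 2-fold.

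A bin was called higher or lower where the liver level, log2(RPM + 0.5), lay at least 4-fold from each ES library. With 1 liver library the call has no replicate check on the liver side. By this rule 36840 tested bins (20.2%) were higher and 31979 (17.5%) were lower in liver, and the median difference, liver minus the mean of the ES libraries, was 0.15 on the log2 scale. These pseudocounted differences understate changes of low bins. limma, with the liver library assumed to vary like an ES library, put 62672 bins (34.3%) higher and 54800 (30.0%) lower at an adjusted p of 0.05, including 36836 of the 36840 bins called higher by fold and 31976 of the 31979 called lower. That fit has 1 residual degree of freedom, from the ES libraries. Without the filter on low bins it called 0 bins in either direction (195427 higher and 174965 lower at an unadjusted p under 0.05), and with libraries thinned to the liver depth 17964 higher and 16575 lower; limma-voom called 63160 higher and 17531 lower. In whole liver, a mark in fewer cells and less of the mark per cell cannot be told apart.

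Promoter bins were more often higher than lower in liver. Of 35549, 7550 (21.2%) were higher and 3415 (9.61%) were lower, against 20.2% and 17.5% over all tested bins. The class held 13531 tested bins with H3K4me3 at the threshold in liver alone and 3183 in ES cells alone. All promoter bins together held 78.6% of liver and 42.6% of ES H3K4me3 reads. Bins with H3K4me3 in liver alone held 6901 higher and 123 lower calls. Lower bins outnumbered higher ones in the other classes, by 1114 to 647 with H3K4me3 in both and 2178 to 2 in ES cells alone. The excess of higher promoter bins thus lay in the class with H3K4me3 in liver alone. What the difference between the H3K4me3 libraries does to the size of that class was not tested. limma called 11229 promoter bins higher and 5722 lower. The median promoter difference was 0.35 on the log2 scale, 0.53 from ES replicate 1 and 0.17 from ES replicate 2. With a trimmed mean of M-values (TMM) as the scaling, which lowered the median of all tested bins from 0.15 to -0.25, the higher share of promoter calls fell from 68.9% to 58.7% and the promoter median became -0.10.

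**Figure D1:**
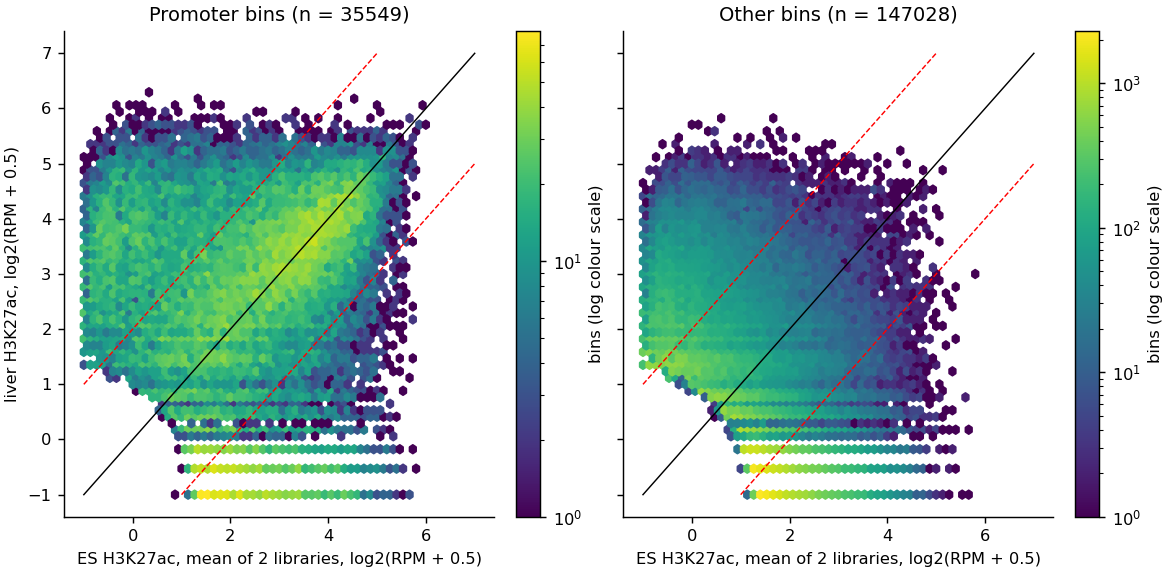
Liver H3K27ac (vertical axis) against the mean of the 2 ES libraries (horizontal axis), both log2(RPM + 0.5), for 35549 promoter bins and 147028 other bins; the colour gives the number of bins per hexagon on a log scale. The solid line marks equal levels and the dashed lines a 4-fold difference from the ES mean; promoter bins crowd along the line at high levels, other bins spread to both sides, and the empty lower left corner is the filter on low bins.

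H3K4me3 sorted the promoter bins into groups with different H3K27ac. Where both ES cells and liver had H3K4me3 (18835 tested bins), 90.7% were neither higher nor lower, 647 (3.44%) were higher and 1114 (5.91%) were lower, with a median difference of -0.06 (quartiles -0.84 and 0.69). Their median levels were 8.52 RPM in liver and 7.07 and 10.0 RPM in the ES libraries, so liver lay between the ES libraries. The sign of this median followed the scaling, at 0.01 when these bins set the scale and -0.52 with TMM, while lower bins outnumbered higher ones under each of those scalings.

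Where H3K4me3 reached 4 RPM in ES cells alone (3183 tested bins), 2178 (68.4%) were lower in liver and 2 (0.0628%) were higher. Their median H3K27ac level was 0.20 RPM in liver and 5.59 and 6.55 RPM in the ES libraries, a median difference of -2.82. Where H3K4me3 reached 4 RPM in liver alone (13531 tested bins), 6901 (51.0%) were higher and 123 (0.909%) were lower. Here the median level was 7.72 RPM in liver and 1.14 and 1.19 RPM in the ES libraries, a median difference of 2.26. Thus 6901 of the 7550 higher promoter bins had H3K4me3 in liver alone. Of the 3415 lower ones, 2178 had it in ES cells alone. These classes describe single bins, and a neighbouring bin can fall in another class.

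**Figure D2:**
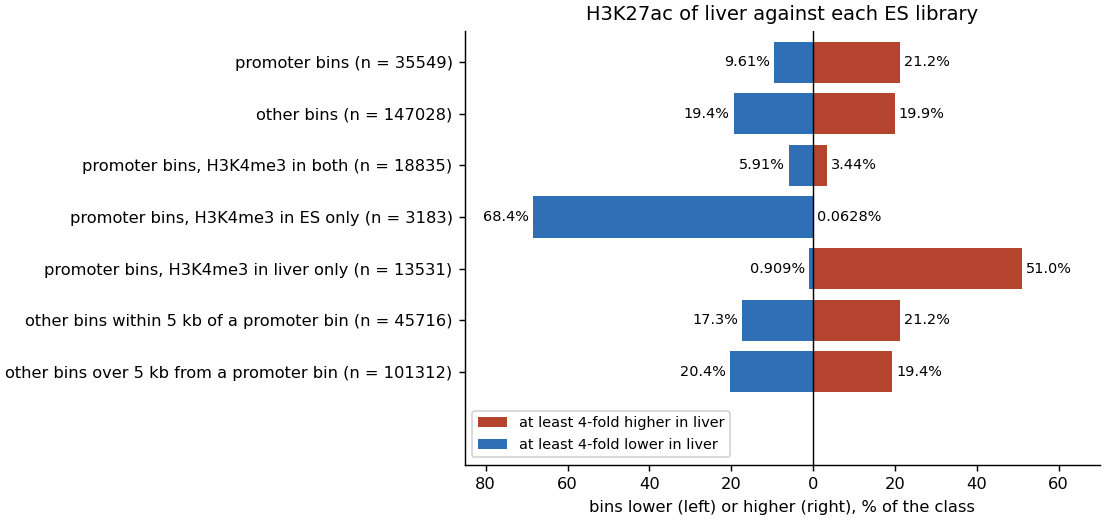
Share of tested bins at least 4-fold lower (bars to the left) or higher (bars to the right) in liver H3K27ac than in each ES library, in percent of each class, with the number of bins beside the class name. Promoter bins with H3K4me3 in both have short bars on both sides (5.91% and 3.44%), those with H3K4me3 in ES cells alone the longest lower bar (68.4%) and those with it in liver alone the longest higher bar (51.0%).

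The size of the H3K27ac difference followed the size of the H3K4me3 difference over promoter bins (Pearson's r 0.843 across 35549 bins). Bins share cell types and neighbours, so no p is given. Promoter bins were themselves chosen by H3K4me3 in either cell type, so r over them depends on that choice. Within the classes r was 0.687 with H3K4me3 in both, 0.582 in ES cells alone and 0.662 in liver alone. Over all tested bins it was 0.583. In the 1178 bins where liver H3K4me3 was over 3 log2 units below ES cells, the median H3K27ac difference was -3.63 and 90.7% were called lower. In the 9865 bins where H3K4me3 was 0 to 1 unit higher in liver, the median was -0.18. In the 6485 bins over 3 units higher it was 3.31, and 77.4% were called higher. Just inside the promoter threshold, at 4 to 5 RPM of H3K4me3, 32.2% of 3253 bins were higher and 15.3% lower; just outside, at 3 to 4 RPM, 26.99% of 5692 bins were higher and 22.4% lower.

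Other bins were higher and lower in liver in nearly equal numbers. Of 147028, 29290 (19.9%) were higher and 28564 (19.4%) were lower in liver, and the median difference was 0.05 with wide quartiles of -1.84 and 1.88. limma called 51443 higher and 49078 lower. With TMM scaling the higher share of these calls fell from 50.6% to 37.6% and the median became -0.32. The higher share was 56.8% with a pseudocount of 1 RPM and 56.98% with a filter at 2 RPM. Higher bins had a median of 5.74 RPM in liver and 0.23 and 0.24 RPM in the ES libraries. Lower bins had a median of 0 RPM in liver and 4.33 and 4.17 RPM in the ES libraries. Of these lower bins 50.2% held no liver read at all, and 1 liver read is worth 0.198 RPM. The fold rule and the filter on low bins used these same H3K27ac levels, so the near-empty side of each set follows largely from that choice. Median H3 in the same bins was 0.53 RPM in ES cells for both sets, and in liver 0.47 RPM for higher and 0.70 RPM for lower bins.

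Among tested bins these shares differed modestly with distance to a promoter, though their balance turned. Within 5 kb of a promoter bin, 21.2% of 45716 other bins were higher and 17.3% were lower. Farther away, 19.4% of 101312 were higher and 20.4% were lower. The share that could be tested differed more: 28.1% of all other bins within 5 kb and 4.48% of those farther away. The median distance to the nearest promoter bin was 12 kb for higher, 13 kb for lower and 11 kb for the remaining other bins. The kind of the nearest promoter bin differed between these sets. It had H3K4me3 in liver alone for 72.3% of higher, 23.9% of lower and 45.5% of the remaining bins. It had H3K4me3 in ES cells alone for 3.03% of higher, 31.8% of lower and 10.4% of the remaining bins.

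Bins within a narrow limit of both ES libraries were a minority in every class. Within 0.5 log2 units of each ES library lay 14897 tested bins (8.16%): 4235 promoter bins (11.9%) and 10662 other bins (7.25%). The share was 17.0% where H3K4me3 was in both, 1.98% where it was in ES cells alone and 7.19% where it was in liver alone. Where H3K4me3 was in both, the ES libraries themselves lay apart by a median of -0.53 (replicate 1 minus 2). This limits the share that can pass, and no share between the ES libraries at this limit is given. By the 4-fold rule 90.7% of those bins were neither higher nor lower.

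H3K4me1 was measured in libraries separate from those of the H3K27ac contrast. It is not a fully independent reading, since the tested bins were chosen by H3K27ac level. It was called higher or lower where liver lay at least 2-fold from each of the 3 ES libraries. Over all tested bins 55443 (30.4%) were higher and 40684 (22.3%) were lower in liver, and the median difference was 0.42. By limma 66266 (36.3%) were higher and 47152 (25.8%) were lower; here too the spread of the single liver library is taken from the ES libraries, with 2 residual degrees of freedom. Tested bins held 57.02% of the liver H3K4me1 reads and 35.4% to 40.6% of the ES reads. What another scaling would do to the H3K4me1 shares, in promoter and other bins, was not tested.

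In other bins H3K4me1 moved with H3K27ac. It was higher in 25690 of the 29290 bins with higher H3K27ac, which is 87.7% (95% Wilson interval 87.3 to 88.1, for counting alone, since neighbouring bins are not independent), and lower in 3 of them. It was lower in 22708 of the 28564 bins with lower H3K27ac, which is 79.5% (79.03 to 79.96), and higher in 37. Where H3K27ac was neither, H3K4me1 was higher at 21.7% and lower at 19.1%. The 2 marks moved in opposite directions at 40 of 57854 other bins (0.0691%).

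At other bins with higher H3K27ac, median H3K4me1 was 5.06 RPM in liver and 0.40, 0.32 and 0.32 RPM in the ES libraries, and 12.8% of them reached 1 RPM of H3K4me1 in all 3 ES libraries. At other bins with lower H3K27ac, median H3K4me1 was 0.27 RPM in liver and 3.22, 3.62 and 3.87 RPM in the ES libraries, and 18.0% reached 1 RPM in liver. In the opposite view, the 25690 shared gains were 57.04% of the 45039 other bins with higher H3K4me1, and the 22708 shared losses were 57.2% of the 39718 with lower H3K4me1. The median H3K4me1 difference rose at each step of the H3K27ac difference, from -2.56 in bins more than 4 units lower to 3.21 in bins more than 4 units higher (r 0.872 across other bins).

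In promoter bins H3K4me1 moved with H3K27ac at a smaller share of bins, and the relation changed with H3K4me3. It was higher in 3676 of the 7550 bins with higher H3K27ac (48.7%, interval 47.6 to 49.8), against 29.3% of all promoter bins. Of the 3415 promoter bins with lower H3K27ac, H3K4me1 was lower at 627 (18.4%, interval 17.1 to 19.7), against 2.72% of all promoter bins, and higher at 863 (25.3%), against 29.3%. The marks moved in opposite directions at 955 of 10965 promoter bins (8.71%), and r was 0.254 across promoter bins.

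Of the 955 promoter bins where the marks moved in opposite directions, 656 had H3K4me3 in both cell types, lower H3K27ac and higher H3K4me1 in liver. They were 58.9% of the 1114 bins with H3K4me3 in both and lower H3K27ac; H3K4me1 was lower at 3 of the 1114, and its median difference was 1.64. Over all bins with H3K4me3 in both, H3K4me1 was higher at 26.8% and lower at 0.372%. Among the 647 bins with H3K4me3 in both and higher H3K27ac, it was higher at 47 (7.26%) and lower at 16 (2.47%), with a median of 0.34. Across all 18835 bins r was -0.348. Where H3K4me3 was in ES cells alone and H3K27ac was lower (2178 bins), H3K4me1 was lower at 28.5% and higher at 8.54%, against 21.4% and 10.9% of all bins with H3K4me3 in ES cells alone. Where H3K4me3 was in liver alone and H3K27ac was higher (6901 bins), H3K4me1 was higher at 52.6% and lower at 1.101%, against 37.1% and 1.60% of all bins with H3K4me3 in liver alone.

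**Figure D3:**
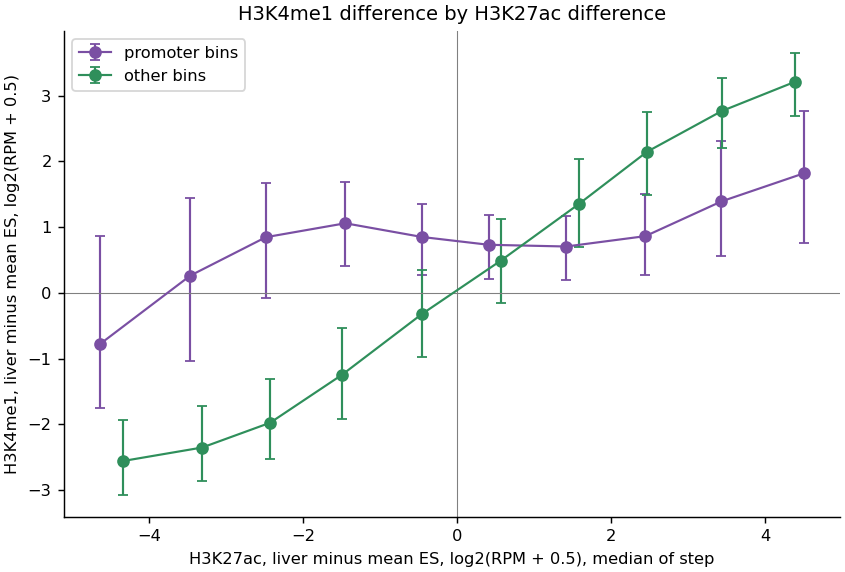
H3K4me1 difference, liver minus mean of 3 ES libraries (vertical axis), by step of the H3K27ac difference, liver minus mean of 2 ES libraries (horizontal axis, median of each step), both in log2(RPM + 0.5); points are medians over bins and bars the quartiles. Other bins climb from -2.56 to 3.21, while promoter bins stay between 0.71 and 1.06 over the middle 6 steps, reach 1.82 at the top and -0.78 at the bottom.

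The strongest promoter gains were nearly empty in ES cells. The bin with the largest difference, chr16:38213001-38214000, held 346 liver reads (68.5 RPM) and 4 and 1 reads in the ES libraries (0.456 and 0.119 RPM). Its log2 difference was 6.49 (SE 0.400, limma adjusted p = 0.00526), and H3K4me3 was 87.3 RPM in liver against 1.72 RPM in ES cells. H3K4me1 there was low in every library, 0.82 RPM in liver and 0.213 to 0.484 RPM in ES cells (limma adjusted p = 0.104). The bins chr6:138106001-138107000, chr11:83563001-83564000 and chr10:128363001-128364000 followed, with differences of 6.34, 6.26 and 6.23. The fifth, chr13:24338001-24339000, held 179 reads in liver (35.4 RPM) and 0 in each ES library. Set against 3 reads in each ES library it was at least 101-fold higher, and its H3K4me1 was 3.55 RPM in liver against 0.302, 0.213 and 0 RPM.

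The 5 strongest promoter losses held no liver H3K27ac read. At chr3:34842001-34843000 the ES libraries had 354 and 574 reads (40.4 and 68.3 RPM), and liver, set at 3 reads, was at least 91.5-fold lower (log2 difference -6.73, SE 0.492, limma adjusted p = 0.00532). In neural progenitor cells (NPCs, derived from the ES line, 1 library) this bin had 77.7 RPM of H3K27ac. The other 4 had 0.587 to 1.76 RPM in NPCs. The bin chr17:47166001-47167000 had 39.0 and 67.0 RPM in ES cells and the most p300 of these 5, a coactivator that acetylates histones, at 15.1 and 11.9 RPM in the 2 ES p300 libraries.

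H3K4me1 at these 5 bins went both ways, with each p resting on the spread of the ES libraries alone. At chr7:139795001-139796000, where H3K27ac was 36.0 and 65.9 RPM in ES cells and 0 in liver, H3K4me1 was 6.28 RPM in liver and 0.302, 0.958 and 0.645 RPM in ES cells (log2 difference 2.62, limma adjusted p = 0.00251). It was also higher at chr11:95823001-95824000, by 1.44 (adjusted p = 0.0186). It was lower at chr15:76496001-76497000, by a log2 difference of -1.69 (adjusted p = 0.00964), and at chr17:47166001-47167000, by -1.46 (adjusted p = 0.0257). At chr3:34842001-34843000 the ES values spread from 0 to 2.56 RPM and the difference of 1.73 did not pass (adjusted p = 0.118).

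The strongest gains among other bins carried H3K4me1 in each case. At chr12:82106001-82107000, 145 kb from the nearest promoter bin, H3K27ac was 40.6 RPM in liver (205 reads) and 0.228 and 0.119 RPM in ES cells (log2 difference 5.94, SE 0.319, limma adjusted p = 0.00526). H3K4me1 there was 15.8 RPM in liver and 0.804, 0.532 and 0.323 RPM in ES cells. The other 4 were chr9:48496001-48497000, chr13:24371001-24372000, chr11:51603001-51604000 and chr1:87888001-87889000, with H3K27ac differences of 5.71 to 5.80. Over the 5 bins H3K4me1 was 6.97 to 15.8 RPM in liver and at most 0.804 RPM in any ES library.

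The strongest losses among other bins held no liver H3K27ac read. At chr12:87392001-87393000, next to a promoter bin, the ES libraries had 464 and 384 reads (52.9 and 45.7 RPM), so liver was at least 83.0-fold lower with 3 reads as the floor (log2 difference -6.63, SE 0.354, limma adjusted p = 0.00526). H3K4me1 was 0 in liver and 5.03, 10.6 and 4.19 RPM in ES cells. The other 4 were chr7:63835001-63836000, chr4:141442001-141443000, chr12:111149001-111150000 and chr10:75093001-75094000, with differences of -6.54 to -6.08. H3K4me1 was lower at all 5, by log2 differences of -3.73 to -2.53 with limma adjusted p from 0.000643 to 0.00156. p300 in ES cells was 4.49 to 10.9 RPM over these bins and libraries, above the 1.15 and 0.97 RPM medians of all tested bins.

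Among bins at a steady level, those with the most H3K27ac were promoter bins. chr17:33731001-33732000 had 65.7 RPM in liver and 53.6 and 73.4 RPM in ES cells, and chr19:5844001-5845000 had 50.3 RPM against 56.7 and 67.4 RPM. H3K4me1 was at most 0.683 RPM in liver at these bins and at chr6:86492001-86493000. Steady other bins reached less: chr11:117778001-117779000 had 28.5 RPM in liver and 36.0 and 33.2 RPM in ES cells. With H3K27ac level, H3K4me1 was still higher in liver there, 18.4 RPM against 5.53, 8.63 and 6.62 RPM (log2 difference 1.37, limma adjusted p = 0.00713). The same held at chr8:73576001-73577000, with 14.8 RPM against 4.42, 5.54 and 5.00 RPM (adjusted p = 0.00292), but not at chr15:88695001-88696000 (adjusted p = 0.756).

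Called bins joined into stretches where no more than 1 kb separated them. Higher bins formed 14536 stretches with a median span of 2 kb, and lower bins 14394 with a median of 1 kb; 45.3% and 55.5% of these were single bins. Stretches that spanned 10 kb or more numbered 468 for higher and 391 for lower bins and held 17.3% and 15.9% of the called bins. Stretches with a promoter bin had median spans of 3 kb (3858 higher) and 2 kb (2406 lower), and those without one 1 kb (10678 and 11988); a longer stretch has more bins that could be a promoter bin, so these spans are a description.

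The longest stretches were picked out after their values were seen. The longest gain was chr14:24291001-24333000, 42 kb with 6 promoter bins, where mean H3K27ac was 14.3 RPM in liver and 1.081 and 1.295 RPM in ES cells and mean H3K4me1 was 12.1 RPM against 0.87, 1.02 and 1.41 RPM. A gain of 39 kb at chr9:48472001-48511000 held no promoter bin and averaged 16.2 RPM in liver against 0.32 and 0.24 RPM. It contains the second strongest gain among other bins. The longest loss was chr12:87350001-87402000, 52 kb with 10 promoter bins, where ES cells averaged 15.1 and 13.0 RPM and liver 0.61 RPM; it contains the strongest loss among other bins. Another at chr2:162739001-162782000 spanned 43 kb with 11 promoter bins and averaged 10.4 and 9.91 RPM in ES cells against 0.14 RPM in liver.

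Around the strongest bin of each stretch the marks had different shapes. At the 11357 gains centred on other bins, H3K4me1 peaked in liver at 5.96 RPM and was flat in ES cells (0.66 to 0.72 RPM at the centre). At the 12470 losses centred on other bins, it peaked in the ES libraries at 3.07, 3.54 and 3.82 RPM and was 0.67 RPM in liver. At the 1924 losses centred on promoter bins, the ES libraries dipped at the centre, to 1.45, 2.09 and 1.86 RPM from 2.04 to 2.36 RPM at 1 kb on either side. Liver H3K4me1 peaked at those same centres, at 3.09 RPM against 1.45 and 1.44 RPM at 1 kb. H3K4me3 at those centres was 13.2 RPM in ES cells and 5.22 RPM in liver. At the 3179 gains centred on promoter bins, mean ES H3K4me3 was 1.18 RPM at the centre and 3.58 RPM at 1 kb on either side. Liver H3K4me3 at the centre of these gains was 17.2 RPM. How many of them adjoin a promoter bin of ES cells was not counted. Mean H3 stayed between 0.42 and 0.70 RPM at the centres of all 4 sets.

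**Figure D4:**
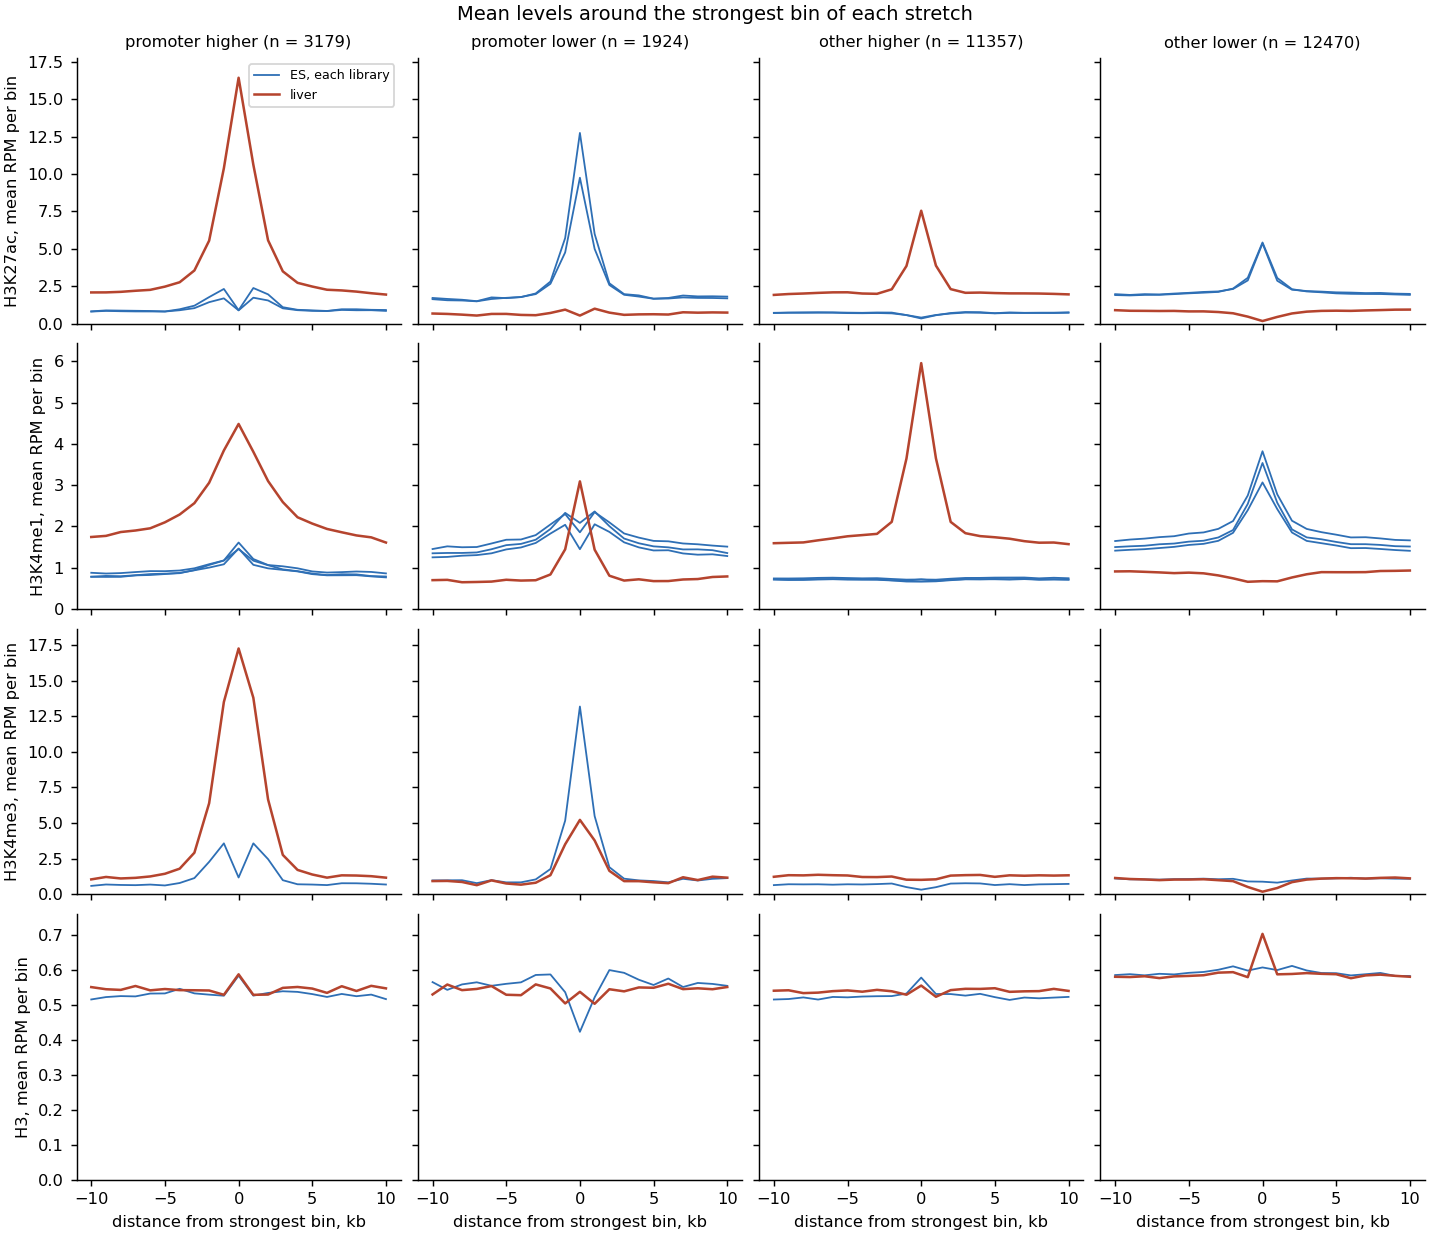
Mean RPM per 1 kb bin (vertical axes, 1 mark per row) by distance in kb from the strongest bin of each stretch (horizontal axis), for liver and for each ES library; columns are the 4 sets with their number of stretches. H3K27ac chose the sets, so its central peaks and dips are given by that choice; the H3K4me1 row shows liver peaking at 3.09 RPM at promoter losses, where the ES libraries dip to 1.45 to 2.09 RPM.

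p300 in ES cells and H3K27ac in NPCs, which the calls did not use, were read at the same bins. The sets were chosen by ES and liver H3K27ac, so contrasts with ES cells follow in part from that choice. At other bins with lower H3K27ac in liver, median p300 in ES cells was 2.01 and 1.82 RPM, against 0.43 and 0.49 RPM at those with higher H3K27ac. Over all other bins it was 1.01 and 0.97 RPM. At promoter bins the medians were 3.02 and 2.31 RPM for lower and 0.72 and 0.73 RPM for higher H3K27ac, against 1.87 and 1.58 RPM over all promoter bins. At other bins that were lower in liver, where the ES libraries had H3K27ac medians of 4.33 and 4.17 RPM, NPC H3K27ac had a median of 0.44 RPM. It was also 0.44 RPM at other bins that were neither, and 0.29 RPM over all other bins. At promoter bins lower in liver it was 1.47 RPM, against 4.84 RPM over all promoter bins. At promoter bins with H3K4me3 in both ES cells and liver it was 19.97 RPM.

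Chromosomes differed in the balance of calls. On the 18 chromosomes other than chromosome 8, higher bins ranged from 13.8% of tested bins on chromosome 17 to 27.2% on chromosome 6, and lower bins from 13.4% on chromosome 19 to 21.8% on chromosome 17. On chromosome 8, 18.0% were higher and 17.8% were lower. There the background itself differed: its share of H3 reads in liver was 0.852 of that in ES cells, against 0.977 to 1.03 on the other 18 chromosomes. Outside tested bins, chromosome 8 held 6.03% and 6.11% of ES H3K27ac reads and 4.91% of those of liver. Its part in the calls of that chromosome was not tested; without chromosome 8 there were 7126 higher and 3196 lower promoter bins and 27653 higher and 26739 lower other bins, an alternative chosen after the data were seen.

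**Figure D5:**
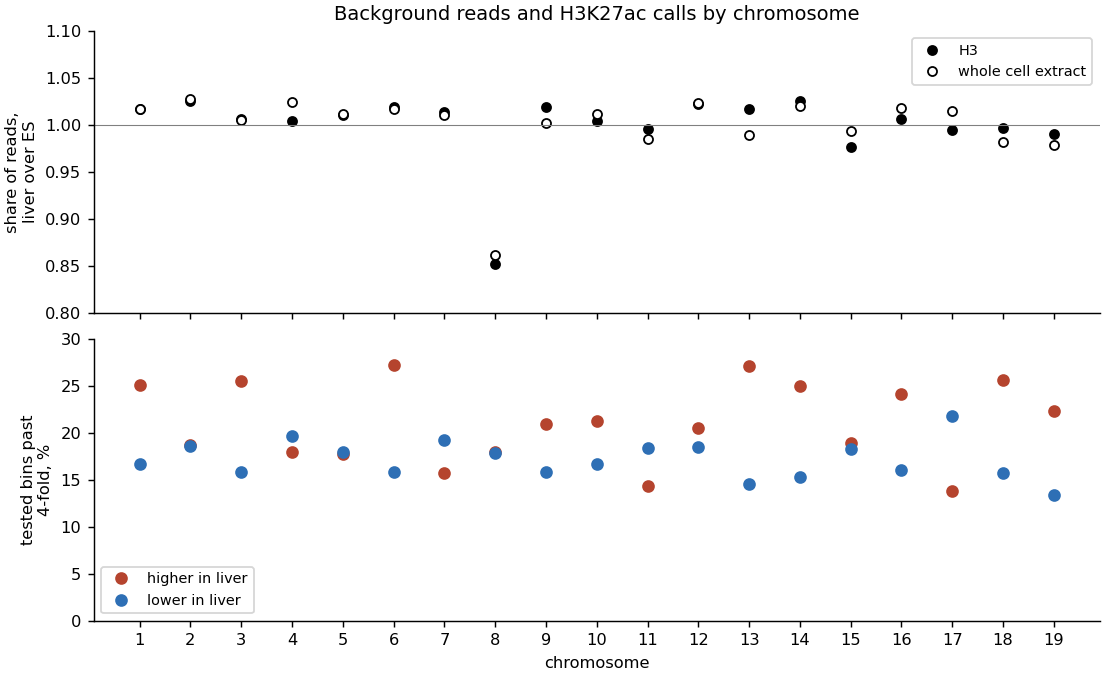
Top, the share of H3 reads (filled) and whole cell extract reads (open) on each chromosome, liver divided by ES cells. Bottom, the percent of tested bins at least 4-fold higher or lower in liver H3K27ac; chromosome 8 stands apart in both backgrounds (0.852 and 0.862), while its shares of calls (18.0% and 17.8%) lie within the range of the other chromosomes.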

How the data were processed

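The data were single-end ChIP-seq reads, and the deposited value is other than a count: per the file headers and values, each file the authors deposited lists 1 signed position per read under its chromosome, in sections U0 and U1. For the aligner, its filters and the genome build: not given in the sources used here. Positions on chromosome 1 reach 197068231, beyond the last GRCm38 gene end at 195291439, so the GRCm38 gene tables were not joined and positions are given as in the files. Fragments were size-selected from a gel after PCR, per the labels.

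Here reads on chromosomes 1 to 19 were taken once per position and strand, moved 100 bp toward the fragment centre, counted in 1 kb bins and scaled to RPM over those reads (numpy 2.4.6). Levels are log2(RPM + 0.5). The main test was made on log2 levels: limma 3.58.1 (limma-trend, two-sided, Benjamini-Hochberg over all 182577 tested bins) was run in R 4.3.3. The H3 filter removed 176 of 182753 bins. Depth was 5049578 to 8766359 distinct reads for H3K27ac and 6197971 to 9946681 for H3K4me1; intervals cover counting error only. Scripts were tested on simulated data. Named bins were the 5 largest differences in each of 4 sets, and the 3 highest steady bins in promoter and other bins, at least 100 kb apart, with chromosome 18 passed over. Groups came from the library titles. The members, lists and tests were chosen with earlier results of these data known. The alternatives tried for H3K27ac were other scalings, filters, pseudocounts, thresholds, bin sizes, depths, repeated reads, limma-voom and leaving out each ES library or chromosome 8. For H3K4me1 they were repeated reads, a pseudocount of 1 RPM, and leaving out each ES H3K4me1 library or chromosome 8. H3K4me1 was not rescaled or thinned. Fibroblast, iPS cell and Rfx1 libraries were not used here.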

Additional observations from a re-analysis of the deposited data

Results flagged for a closer look

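Background reads were sparser on chromosome 8 in liver than in ES cells, in the H3 libraries, which enter the comparisons through the filter on bins and the H3-subtracted alternative, and in the whole cell extract libraries, which do not enter them. The share of reads on chromosome 8, liver divided by ES cells, was 0.852 in H3 and 0.862 in whole cell extract, while the other 18 chromosomes lay between 0.977 and 1.03 in H3 and between 0.979 and 1.03 in whole cell extract. Outside tested bins, chromosome 8 held 6.16% of reads in ES H3, 6.18% in ES whole cell extract, 6.22% and 6.11% in the ES p300 libraries and 5.92% in ES H3K4me3. The ES H3K4me1 libraries held 5.70% (V6.5), 5.02% (V6.5 with the 4f2a transgene) and 5.06% (j21). The liver libraries held 4.91% to 5.28% and NPC H3K27ac 5.08%. Each background has 1 library per cell type, but the difference recurs in libraries of other marks. Every V6.5 library without the transgene held 5.70% to 6.22%, above all liver libraries. The transgene and j21 libraries and NPC H3K27ac lay within the range of the liver libraries. The cause was not tested.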

How the results depend on the processing

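Of 138 alternative values of the main results, 94 stayed within the tolerance, 42 moved and 2 changed sign. The tolerance was 1.5 times for counts, 1 SD of the differences from the 2 ES libraries for medians, and the 95% Wilson interval for shares. Within it, leaving out ES replicates 1 and 2 put the promoter median at 0.17 and 0.53. These are the same differences that set the tolerance, so that outcome was close to fixed and is no check. The same holds for the other median with each ES library left out. These values are counted among the 94. Within the tolerance the other median ranged from 0.01 to 0.11 over the alternatives. Both sign changes came with TMM scaling (factor 1.26 for liver, 0.897 and 0.887 for ES cells), where the promoter median was -0.10 and the other median -0.32. Counts of higher and lower promoter bins were 4772 and 1937 with H3K4me3 at 8 RPM, 11866 and 6749 at 2 RPM, 11866 and 6452 with a 2-fold rule, and 3674 and 1635 in 2 kb bins. Counts of higher and lower other bins were 18061 and 13715 with a pseudocount of 1 and 51829 and 50999 with the 2-fold rule. They were 15063 and 14023 in 2 kb bins, and a filter at 2 RPM left 21112 and 15941. That filter left 94364 bins to test, and tested 2 kb bins numbered 94742, against 182577. Counts at these 2 settings, also those of limma below, are thus over fewer bins. As shares of tested bins, higher and lower promoter bins were 3.88% and 1.73% in 2 kb bins, against 4.135% and 1.87%. For other bins they were 15.9% and 14.8% in 2 kb bins and 22.4% and 16.9% at 2 RPM, against 16.0% and 15.6%.

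limma called 39628 higher and 26458 lower at the 2 RPM filter, 17964 and 16575 with the H3K27ac libraries thinned to the liver depth, and 38664 and 33543 in 2 kb bins. It called 31540 lower with H3 subtracted, and limma-voom called 17531 lower beside 63160 higher. The higher share of limma calls was 53.4%, 45.9% with TMM (52494 higher, 61796 lower), 61.6% with H3 subtracted and 78.3% by limma-voom. With no filter on low bins limma called 0 higher and 0 lower, with 195427 and 174965 at an unadjusted p under 0.05.

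The H3K4me1 shares at other higher, other lower, promoter higher and promoter lower bins were 89.0%, 75.6%, 45.5% and 14.8% with a pseudocount of 1. The promoter shares were 46.3% and 22.3% with all repeated reads. Leaving out each ES H3K4me1 library gave 88.7% to 90.0%, 81.0% to 82.9%, 50.8% to 53.8% and 18.8% to 22.3%. Leaving out each ES H3K27ac library gave, by fold alone, 8169 and 8686 promoter bins higher and 4767 and 3543 lower. Other bins were 35893 and 32710 higher and 32799 and 33226 lower. The fold rules ask for the fold from every ES library, so leaving out 1 can only add calls. That these H3K27ac counts and H3K4me1 shares did not fall was therefore fixed in advance.

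The 20 named higher and lower bins kept their direction in all 220 limma values tried. They were picked as the largest differences in these same reads, so this outcome was close to fixed and is no check on them. The 20 values with no filter on low bins had an adjusted p of 0.148, and 6 with thinning 0.0514 to 0.0584; over these alternatives, which leave out the 2 kb bins, the range was 0.00094 to 0.148. No paired analysis was possible because liver has 1 library of each mark and shares no pair of replicate numbers with the ES libraries.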
